A study of Homo sapiens with 6 samples.

Results

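FOS, FOSB, FOSL1, FOSL2, JUN, JUNB, JUND, ATF3, EGR1 and IER3 were followed in clones of MDA-MB-231, an invasive human cell line from triple-negative breast cancer. The members were taken by symbol: every probe set that the platform annotation pairs with 1 of these 10 genes, which gave 24 of the 54613 probe sets that are not controls and 10 of 19775 genes. FOSL2 had 5 probe sets, JUN and JUND had 4 each, ATF3 and EGR1 had 3 each, and FOS, FOSB, FOSL1, JUNB and IER3 had 1 each. The knockdown group held 3 single clones made with a pSM2 retroviral vector and 1 of 2 WASF3 hairpins (short RNAs that lower a message), an activator of branched actin growth. The control group held 3 single clones carrying the empty pSM2 vector or a hairpin against GFP. All clones were puromycin resistant (1.0 µg/ml for 2 weeks) at passage 4 and grew in RPMI medium with 10% fetal bovine serum. Each array is 1 clone, read as 1 replicate, and the sources used here do not tie a hairpin or control vector to a clone. Differences between clones of 1 group therefore enter every error below, and RNA from a clone cannot separate fewer expressing cells from less RNA per cell.

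AP-1 is a dimeric transcription factor whose partners pair through a leucine zipper. A Jun protein (JUN, JUNB or JUND) binds either another Jun protein or a Fos protein (FOS, FOSB, FOSL1 or FOSL2), and the dimer binds the element TGANTCA in genes of growth, invasion and matrix remodelling. FOS, FOSB, JUNB, EGR1, ATF3 and IER3 are immediate early genes: growth factors, serum or stress switch them on within minutes through ERK, JNK and the serum response factor, without new protein synthesis, and their messages are short-lived. FOSL1 and FOSL2 are induced later and last longer, and FOSL1 is a prominent AP-1 member of triple-negative breast cancer cells.

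Values are log2 signals made by RMA (robust multi-array average), so a difference of 1 is 2-fold, and a change is the knockdown mean minus the control mean, given with its standard error (SE) in a limma fit. A probe set was called when its p, adjusted by the Benjamini-Hochberg method over all 54613 probe sets, was under 0.05. The array medians lay between 5.12 and 5.17. Leukocyte genes that a carcinoma line should lack (PTPRC, CD3E, CD14, MS4A1, LYZ) read between 3.01 and 5.49 over the 6 arrays, so levels in that range are not shown to be above background. Of the endothelial and fibroblast markers, VWF, CDH5, COL1A2, COL3A1, DCN and LUM also stayed below 5.49. PDGFRB reached 5.74, PECAM1 read between 6.38 and 7.69 and COL1A1 between 7.09 and 7.39. Whether those are expressed here was not tested, so levels a little above the leukocyte range are not shown to be above background either. The label MDA-MB-231 was checked on the mesenchymal marker VIM, which read 14.1, 14.3 and 14.1 in knockdown and 14.3, 14.2 and 14.3 in control clones, and on 5 genes absent or low in such cells. Of these, the progesterone receptor PGR lay between 3.19 and 3.56 and the oestrogen receptor ESR1 between 5.66 and 6.11 in all clones. The others were not all low: ERBB2 lay between 7.80 and 8.18, and the epithelial gene EPCAM read 7.88, 8.67 and 7.38 in knockdown and 7.53, 7.39 and 7.51 in control clones. The epithelial cadherin CDH1 read 7.33, 4.44 and 4.47 in knockdown clones 1, 2 and 3, against 5.19, 4.59 and 5.05 in control clones, so knockdown clone 1 stood 2.39 above the control mean. The targeted gene WASF3 read 5.40, 5.80 and 4.52 in knockdown clones 1, 2 and 3, against 6.77, 6.42 and 6.59 in control clones 1, 2 and 3 (change −1.35, SE 0.29, adjusted p = 0.102 in limma). Knockdown clones 1 and 3 lay in the range of the leukocyte markers, so their order is not established. As a sign of RNA quality, the 3′ minus 5′ index of the controls for GAPDH and ACTB was 2.11, 1.62 and 1.66 in knockdown clones 1, 2 and 3, against 1.13, 1.47 and 1.26 in control clones 1, 2 and 3.

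The 250 bases before the annotated start of EGR1, FOS, FOSB and JUN are shown because EGR1, FOS and FOSB had the same order of the knockdown clones on their brightest probe sets, while JUN was lower in all of those clones. These traits do not single out the genes shown. JUNB had both, IER3 was also lower in all knockdown clones, and neither is shown. Sequences are from RefSeq on GRCh38.p14, written 5′ to 3′ on the strand of the gene, and capitals mark any of 6 motifs found by search on either strand: the CArG box (the serum response factor element), TGACGTCA and its first bases TGACG (cyclic AMP response element, full and partial, so that each full element also holds the partial one), TGANTCA (AP-1), TGACATCA (the variant AP-1 element known from the JUN promoter) and TATAAA.
EGR1, chr5:138465229-138465478, plus strand: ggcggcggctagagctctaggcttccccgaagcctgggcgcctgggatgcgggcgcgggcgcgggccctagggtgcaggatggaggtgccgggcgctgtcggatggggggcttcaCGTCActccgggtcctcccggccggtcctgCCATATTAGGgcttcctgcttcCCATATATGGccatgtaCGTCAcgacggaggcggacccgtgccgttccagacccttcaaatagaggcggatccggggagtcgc
FOS, chr14:75278578-75278827, plus strand: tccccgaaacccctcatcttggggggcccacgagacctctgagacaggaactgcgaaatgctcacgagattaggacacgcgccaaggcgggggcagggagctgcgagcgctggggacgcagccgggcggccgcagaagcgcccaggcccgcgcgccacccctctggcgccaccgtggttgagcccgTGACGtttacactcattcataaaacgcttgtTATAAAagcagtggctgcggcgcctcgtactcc
FOSB, chr19:45467746-45467995, plus strand: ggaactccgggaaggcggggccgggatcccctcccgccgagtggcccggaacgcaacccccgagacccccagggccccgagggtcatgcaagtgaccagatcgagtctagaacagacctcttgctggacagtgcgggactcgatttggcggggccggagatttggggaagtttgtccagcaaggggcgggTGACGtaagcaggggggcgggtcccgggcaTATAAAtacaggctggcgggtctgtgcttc
JUN, chr1:58784048-58784297, minus strand: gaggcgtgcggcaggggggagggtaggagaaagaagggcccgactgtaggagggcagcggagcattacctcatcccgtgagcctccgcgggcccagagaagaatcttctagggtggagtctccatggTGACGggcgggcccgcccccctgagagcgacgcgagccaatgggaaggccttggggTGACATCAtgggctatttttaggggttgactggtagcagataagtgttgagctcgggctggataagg

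The EGR1 window holds 2 CArG boxes, CCATATTAGG and CCATATATGG, where 1.16% of 35116 windows of this length in the same table hold any. FOS and FOSB windows each hold 1 TGACG (21.2% of all windows hold at least 1) and 1 TATAAA (10.7%). The JUN window holds 1 TGACG and 1 TGACATCA, which 2.37% of all windows hold. The AP-1 element TGANTCA, found in 6.57% of all windows, is in none of the 9 windows of the 8 members that the table covers, and TGACGTCA (1.65% of all windows) is in that of JUND. A match is a description of the letters and was not tested for binding, and elements farther away lie outside these windows.

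No member passed the test between the knockdown and control clones as groups. Of 24 member probe sets, 0 were called in limma, where 0.558% of all probe sets were (0.308% lower and 0.251% higher), and 5 were lower and 0 higher at an unadjusted p under 0.05 (all probe sets: 6.79% lower and 7.25% higher). The knockdown mean was below the control mean on 18 of the 24, against 52.9% of all probe sets. The median change over the 10 members on their brightest probe sets, meaning for each gene the 1 with the highest 6-array mean, was −0.16, and the median over all genes was −0.01. The members' median ran from −0.32 to −0.14 with 1 clone left out and from −0.30 to −0.060 under the other alternatives. The clones behind these means differed widely. On the brightest probe sets the median difference from the control mean was −0.38, −0.30 and 0.01 in knockdown clones 1, 2 and 3.

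**Figure D1:**
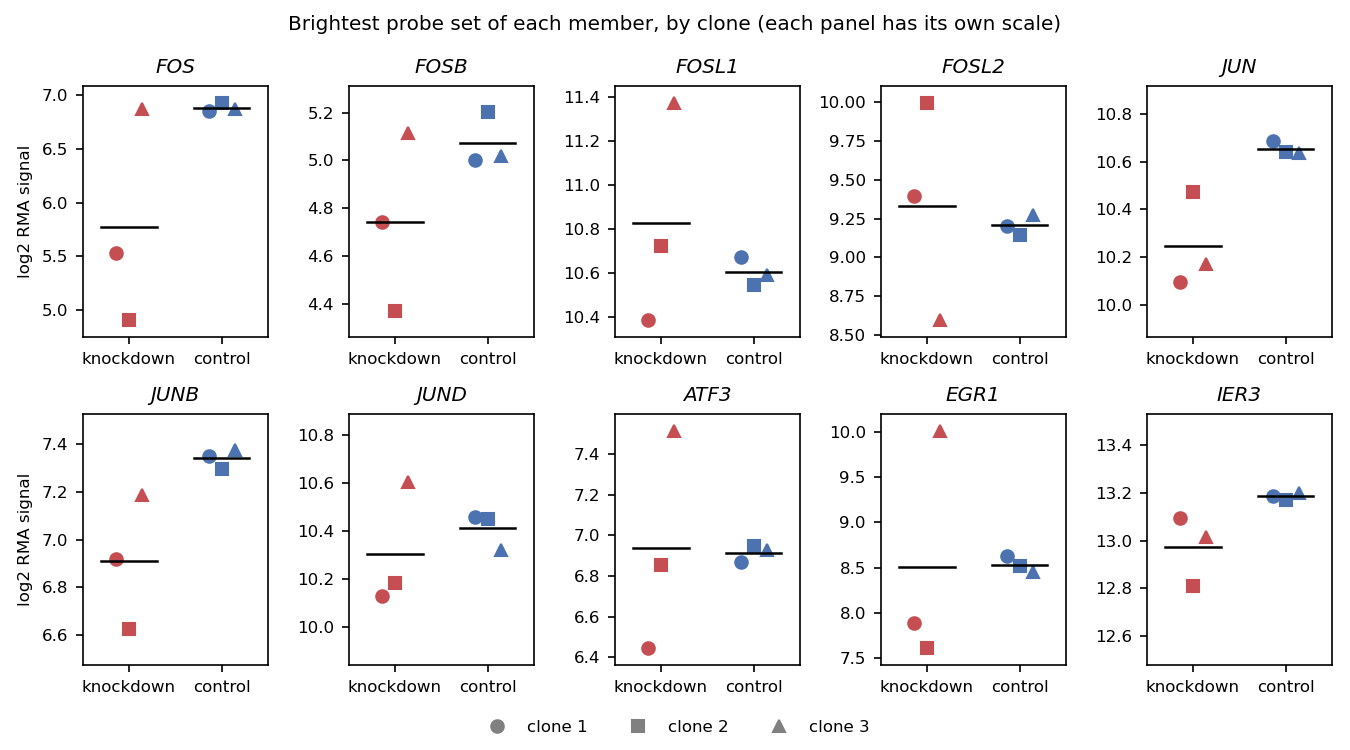
Log2 RMA signal (vertical axis) of the brightest probe set of each of the 10 members in the 3 knockdown clones (red) and the 3 control clones (blue), with markers for clone numbers and a black line at the group mean, each panel on its own scale. Knockdown clone 3 stands far from knockdown clones 1 and 2 for EGR1 and FOS, while the control clones lie close together.

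FOS, the prototype partner of Jun proteins, read 5.53, 4.90 and 6.87 in knockdown clones 1, 2 and 3, against 6.86, 6.93 and 6.87 in control clones 1, 2 and 3. Knockdown clones 1 and 2 lay below every control clone and clone 3 lay among them. The mean was 5.77 ± 1.01 in knockdown and 6.89 ± 0.04 in control clones (SD, n = 3 each), a change of −1.12 (SE 0.43, 95% interval −2.13 to −0.11) that missed the threshold (adjusted p = 0.306 in limma). The exact two-sided permutation test over arrays gave p = 0.3, where 3 against 3 cannot go below 0.1. Knockdown clone 2 lay within the range of the leukocyte markers and clone 1 just above it, so the sizes of their differences of −1.98 and −1.36 are uncertain.

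FOSB, a Fos family member induced alongside FOS, read 4.741, 4.369 and 5.113 in knockdown clones, against 5.001, 5.203 and 5.018 in control clones. The clone order matched that of FOS, with knockdown clone 2 lowest and clone 3 among the controls, but every value lay in the range of the leukocyte markers. The change was −0.33 (SE 0.18, adjusted p = 0.476 in limma).

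FOSL1, which encodes Fra-1, read 10.4, 10.7 and 11.4 in knockdown clones 1, 2 and 3, against 10.7, 10.5 and 10.6 in control clones 1, 2 and 3. Knockdown clone 3 was the highest of the 6 arrays, 0.77 above the control mean, and knockdown clone 1 was the lowest. The change of 0.22 (SE 0.23, 95% interval −0.31 to 0.76) did not pass (adjusted p = 0.725 in limma).

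FOSL2, which encodes Fra-2, had the reverse of the clone order of FOS on 228188_at, 225262_at and 218880_at, but not on 218881_s_at and 205409_at. Its brightest probe set, 228188_at, read 9.40, 10.00 and 8.59 in knockdown clones 1, 2 and 3, against 9.20, 9.15 and 9.27 in control clones 1, 2 and 3. Knockdown clone 2 was the highest knockdown clone on all 5 FOSL2 probe sets, and on 228188_at and 218880_at clones 1 and 2 lay above and clone 3 below every control clone. The control clones spanned only 0.13 on 228188_at, where the knockdown clones spanned 1.40, or 2.65-fold. Group changes ran from −0.22 to 0.21 over the 5 probe sets, with adjusted p-values in limma from 0.682 to 0.923, and 205409_at differed in sign from the rest.

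Among the Jun genes, JUN had all knockdown clones below all control clones on each of its 4 probe sets. The brightest, 201464_x_at, read 10.1, 10.5 and 10.2 in knockdown clones, against 10.7, 10.6 and 10.6 in control clones. Its change of −0.41 (SE 0.12, 95% interval −0.68 to −0.14), or 75.4% of the control signal, had the smallest p of all member probe sets and still missed the threshold (adjusted p = 0.179 in limma, exact permutation p = 0.1). The other JUN probe sets gave −0.46 on 201466_s_at, −0.26 on 201465_s_at and −0.30 on 213281_at. The groups were barely apart on 201465_s_at, where knockdown clone 2 read 8.228 and control clone 3 read 8.229. They were also close on 213281_at, at 6.557 in knockdown clone 2 and 6.572 in control clone 1. Knockdown clone 2 was the nearest to the controls on each of the 4, and the probe sets of 1 gene share their RNA and are not independent.

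JUNB, an immediate early Jun protein that often opposes JUN, read 6.92, 6.63 and 7.19 in knockdown clones 1, 2 and 3, against 7.35, 7.29 and 7.37 in control clones 1, 2 and 3. The groups did not overlap, and the knockdown order was that of FOS, with clone 2 lowest. The change was −0.43 (SE 0.14, adjusted p = 0.239 in limma).

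JUND, the more constitutively expressed Jun protein, differed by −0.22 to −0.02 over its 4 probe sets, and all of them overlapped between the groups. The ends of that range came from 214326_x_at and 229117_s_at, whose values all lay in the range of the leukocyte markers. The brightest, 203752_s_at, read 10.1, 10.2 and 10.6 in knockdown clones and 10.5, 10.5 and 10.3 in control clones, with knockdown clone 3 the highest of the 6 arrays (change −0.11, SE 0.14, adjusted p = 0.794 in limma).

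Over all 24 member probe sets the knockdown clones lay below every control clone on 7 (4 of JUN, 1 each of JUNB, IER3 and ATF3) and above on 0. The shares over all probe sets were 11.1% below and 9.85% above. When the RNA quality index was a term of the fit, the change of JUN on 201464_x_at was −0.20 (adjusted p = 0.701 in limma) and that of JUNB was −0.44 (adjusted p = 0.533), and JUN turned to 0.08 on 201465_s_at. That fit called 1 probe set on the whole array.

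**Figure D2:**
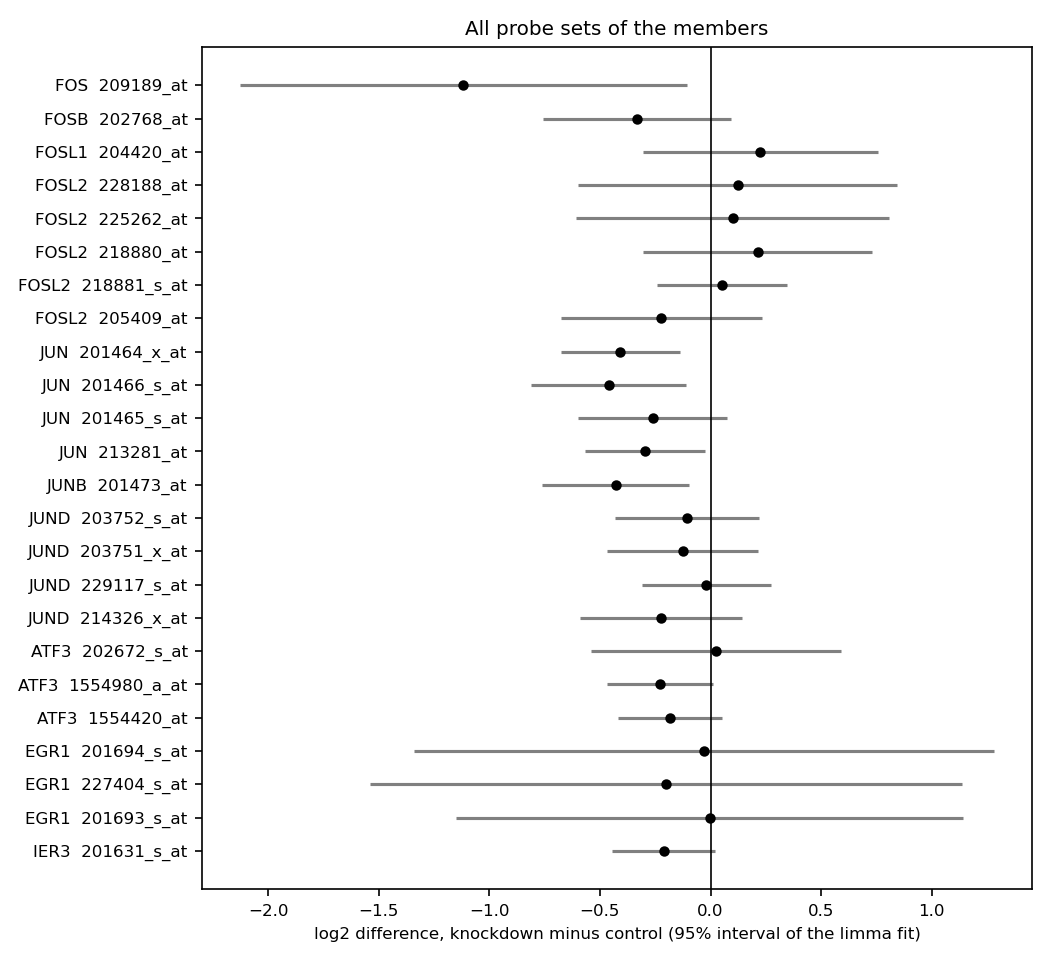
Log2 difference between knockdown and control clones (horizontal axis) for all 24 member probe sets (rows, by gene), with points at the estimate and bars at the 95% interval of the limma fit. The intervals of FOS, JUNB and 3 of the 4 JUN probe sets lie below 0, none passes after adjustment over the array, and the EGR1 intervals are the widest.

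EGR1, a zinc finger factor and the most used readout of ERK and serum response factor activity, had group means within 0.20 of each other on every probe set and the widest gap between clones. Its brightest probe set, 201694_s_at, read 7.88, 7.61 and 10.01 in knockdown clones 1, 2 and 3, against 8.62, 8.51 and 8.45 in control clones 1, 2 and 3. On each of its 3 probe sets knockdown clones 1 and 2 lay below every control clone and clone 3 above every control clone. The split was defined from these values. It was present on 4.18% of all probe sets and on 5 of 24 member probe sets. Those 5 were the 3 of EGR1, 203752_s_at of JUND and 202672_s_at of ATF3. With EGR1 counted in, the share of members cannot be read against that of all probe sets. The reverse was present on 2 member probe sets, both of FOSL2, and on 4.68% of all probe sets. The knockdown clones spanned 2.40, or 5.29-fold, on 201694_s_at, 2.67 on 227404_s_at and 2.06 on 201693_s_at. The control clones spanned 0.17, 0.12 and 0.28 on these probe sets. Knockdown clone 2 on 227404_s_at (5.02) and knockdown clones 1 and 2 on 201693_s_at (5.14 and 5.33) lay in the range of the leukocyte markers, so the sizes of these 2 spans are uncertain. The group change on 201694_s_at was −0.03 (SE 0.56, 95% interval −1.34 to 1.28, adjusted p = 0.990 in limma), so a change of more than 2-fold either way is within the interval.

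ATF3, a stress-induced factor of the ATF family that pairs with Jun proteins, showed the same split on its brightest probe set only. On 202672_s_at it read 6.44, 6.85 and 7.51 in knockdown clones 1, 2 and 3, against 6.87, 6.94 and 6.93 in control clones 1, 2 and 3 (change 0.03, SE 0.24, adjusted p = 0.978 in limma). Probe set 1554980_a_at read 5.68, 5.71 and 5.66 in knockdown and 5.91, 5.76 and 6.07 in control clones, so clone 3 did not stand apart there. The dimmest, 1554420_at, lay in the range of the leukocyte markers. Correlations between the 3 probe sets of ATF3 over the 6 arrays ran from −0.36 to 0.50, while those of EGR1 ran from 0.87 to 0.98.

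IER3, a stress- and NF-kB-induced survival factor that also modulates ERK, was the member with the tightest control values. It read 13.10, 12.81 and 13.02 in knockdown clones, against 13.19, 13.17 and 13.20 in control clones, without overlap between the groups. The change of −0.21 (SE 0.10, adjusted p = 0.402 in limma) left 86.3% of the control signal.

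**Figure D3:**
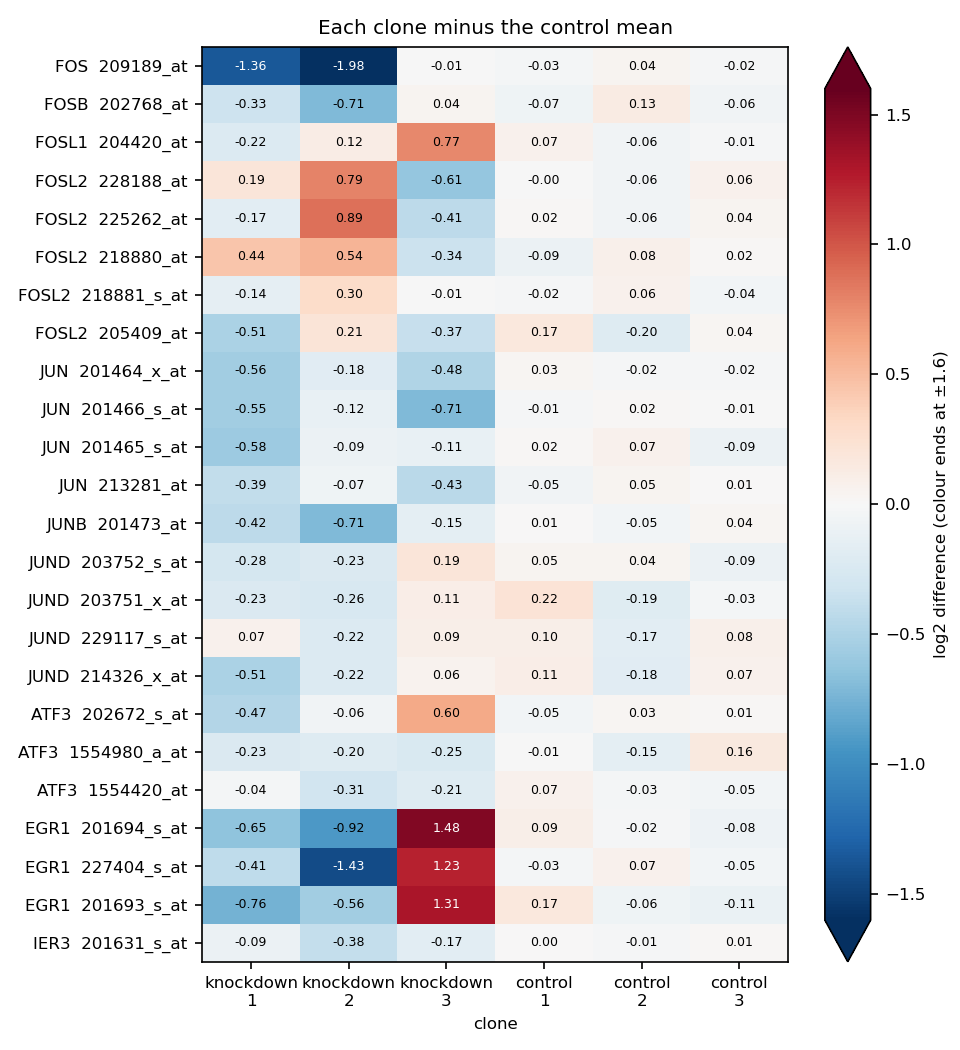
Difference of each clone (columns, 3 knockdown then 3 control) from the control mean on the log2 scale for the 24 member probe sets (rows), with the value printed in each cell and colour ending at ±1.6. FOS reads −1.36, −1.98 and −0.01 and EGR1 on 201694_s_at −0.65, −0.92 and 1.48 in knockdown clones 1, 2 and 3, and FOSL2 on 228188_at runs the other way at 0.19, 0.79 and −0.61.

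The spread among the knockdown clones was wider than among the control clones on 22 of the 24 member probe sets, and on 72.1% of all probe sets. The median SD over the member probe sets was 0.29 in knockdown and 0.06 in control clones, against 0.16 and 0.09 over all probe sets. The range of the knockdown clones on 201694_s_at of EGR1 was wider than on 99.7% of all probe sets, that of FOS wider than on 99.4%, and those of FOSL2 (228188_at), ATF3 (202672_s_at) and FOSL1 wider than on 98.3%, 95.7% and 94.7%. JUN, with 62.6% on its brightest probe set, and IER3, with 47.7%, lay near the middle. Against probe sets whose 6-array mean lay within 0.5 of theirs, the shares were 99.7% for EGR1, 98.9% for FOS and 97.6% for FOSL2. They were 91.0% for ATF3, 92.9% for FOSL1, 44.5% for JUN and 54.6% for IER3 on the same probe sets. These percentiles describe the 3 knockdown clones and carry no test.

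**Figure D4:**
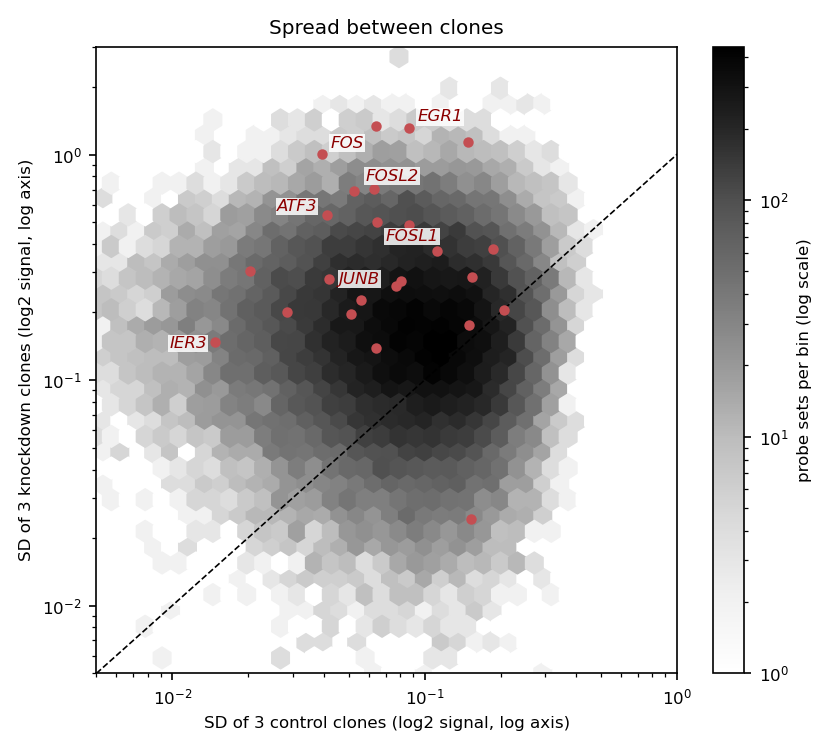
SD of the 3 knockdown clones (vertical axis) against SD of the 3 control clones (horizontal axis), both of log2 signals on log axes, with all probe sets as grey bins and the 24 member probe sets as red points. Of the member points, 22 lie above the dashed line of equal spread, and EGR1 and FOS lie in the upper part of the grey bins, with other probe sets above them.

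Knockdown clone 3 stood apart on the whole array and not only in the members: over all probe sets it correlated at 0.984 to 0.987 with each other array, where all other pairs lay between 0.991 and 0.998. The fit was therefore read with and without it. Without it 5 of 24 member probe sets were called, 4 lower and 1 higher, where 4.56% of all probe sets were called (1.85% lower). FOS was lower at 5.22 in knockdown clones 1 and 2 against 6.89 in control clones, a change of −1.67 (SE 0.17, adjusted p = 0.00802 in limma) whose size is uncertain because clone 2 lay in the range of the leukocyte markers. Without knockdown clone 2 instead, the FOS change was −0.68 (adjusted p = 0.482). EGR1 was lower on 201694_s_at (−0.78, SE 0.11, adjusted p = 0.0157) and on 201693_s_at (−0.66, adjusted p = 0.0285), where both knockdown values lay in the range of the leukocyte markers and the size is uncertain. On 227404_s_at EGR1 did not pass (−0.92, adjusted p = 0.0953), and knockdown clone 2 lay in that range there. JUNB was lower (−0.57, SE 0.11, adjusted p = 0.0352). FOSL2 was higher on 218880_at (0.49, SE 0.10, adjusted p = 0.0366). Its other probe sets did not pass: 0.49 on the brightest, 228188_at (adjusted p = 0.158), 0.36 on 225262_at (0.516), 0.08 on 218881_s_at (0.811) and −0.15 on 205409_at (0.760). JUN did not pass in that fit (−0.37 on 201464_x_at, adjusted p = 0.151). Of the 10 members on their brightest probe sets 3 were called, all lower, where 6.19% of all genes were (2.23% lower). That fit rests on 2 knockdown clones, and clone 3 was left out after its values were known, so these calls hold for clones 1 and 2 only. It also gives both groups 1 estimate of the spread, while the 3 knockdown clones spread more widely than the controls on 72.1% of all probe sets. FOS read 5.53 and 4.90 in knockdown clones 1 and 2, where the SD of the control clones was 0.04. The close control clones can therefore make the SE and the adjusted p-values of this fit too small. Without any other single clone 0 member probe sets were called. The RNA quality index of clone 3 (1.66) lay close to that of clone 2 (1.62), and whether RNA quality has a part in the values of clone 3 was not tested.

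Genes tied to AP-1 were counted on their brightest probe sets in 4 lists of 137 genes, of which 122 were matched here, and 0.738% of all genes were called (0.42% lower and 0.319% higher). The lists were drawn up with earlier results of these data known, so their counts describe the listed genes only. Among 41 other immediate early genes 0 were called in either direction. At an unadjusted p under 0.05, 6 of the 41 were lower and 2 higher, against 1516 lower and 1801 higher of all 19775 genes. The 2 genes of the list with the smallest p were NFKBIZ, a nuclear co-regulator of NF-kB, at 0.71 (SE 0.12, adjusted p = 0.0621 in limma), and the stress kinase PLK3 at −0.41 (SE 0.09, adjusted p = 0.105). NFKBIZ read 10.9, 11.4 and 11.2 in knockdown clones and 10.5, 10.5 and 10.5 in control clones, so it lacked the clone 3 split. The list median was −0.07.

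The split seen for EGR1, with knockdown clones 1 and 2 below and clone 3 above all controls, was then counted in the same list, a count chosen after the EGR1 values were seen. It was present in 8 of the 41 genes (19.5%), where 4.34% of all genes showed it. The other lists of genes tied to AP-1 held it too: 3 of 17 AP-1 partners (17.6%), 5 of 42 target genes (11.9%) and 2 of 25 upstream regulators (8%). The split is thus not particular to immediate early genes, and MAFF and DUSP1 are shared between lists. Of the 10 members on their brightest probe sets 3 had it: EGR1, from which it was taken, ATF3 and JUND. ATF3 and JUND each had it on that probe set only, and for JUND clone 3 read 10.60 against 10.46 in control clone 1, the highest control. The 8 genes of the immediate early list were DUSP1, CCN1, GADD45B, PPP1R15A, MAFF, NR4A2, ZFP36 and EGR4, of which EGR4 lay in the range of the leukocyte markers on all 6 arrays. DUSP1, a phosphatase that switches off MAP kinases, read 9.34, 9.49 and 11.61 in knockdown clones 1, 2 and 3, against 9.93, 9.96 and 10.03 in control clones 1, 2 and 3. GADD45B, a stress sensor upstream of p38 and JNK, read 8.82, 8.85 and 9.68 in knockdown and 9.04, 9.05 and 9.05 in control clones. CCN1, a secreted matricellular protein, read 11.98, 11.86 and 12.91 in knockdown and 12.33, 12.26 and 12.22 in control clones. The reverse split was present in ZFP36L2 and ID2, or 4.88% of the list against 6.45% of all genes. Not all genes of the list followed: HES1, a Notch-responsive repressor, read 10.48, 9.82 and 8.40 in knockdown clones 1, 2 and 3, against 10.04, 10.17 and 10.08 in control clones.

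**Figure D5:**
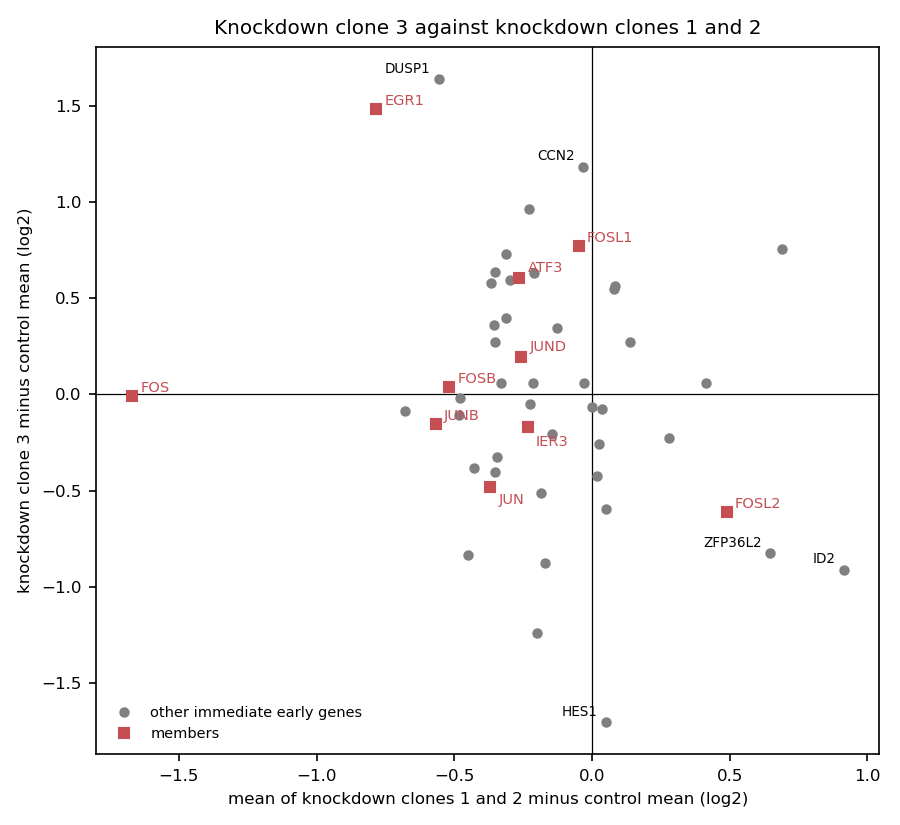
Difference of knockdown clone 3 from the control mean (vertical axis) against that of the mean of knockdown clones 1 and 2 (horizontal axis), both on the log2 scale, for the 10 members (red squares) and 41 other immediate early genes (grey points) on their brightest probe sets. EGR1 and DUSP1 lie at the upper left, FOSL2, ZFP36L2 and ID2 at the lower right, and FOS at the far left near 0 for clone 3.

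Of the remaining AP-1 partners among basic leucine zipper proteins, 0 of 17 were called. The Jun partner ATF7 read 8.95, 8.37 and 8.30 in knockdown clones, against 9.11, 9.15 and 9.15 in control clones (−0.60, SE 0.17, adjusted p = 0.182 in limma), and JDP2, a Jun dimerization protein that represses AP-1, differed by 0.29 (adjusted p = 0.326). Of 25 upstream kinases and regulators 0 were called. MAP2K4, a kinase that activates JNK, read 8.56, 8.41 and 8.20 in knockdown and 7.87, 7.79 and 7.91 in control clones (0.54, SE 0.11, adjusted p = 0.0936 in limma), and ELK1, the ERK-regulated partner of the serum response factor, differed by −0.28 (adjusted p = 0.223). For these 2 genes every knockdown clone lay on the same side of all controls.

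Of 42 AP-1 target genes 3 were called lower and 0 higher, where 0.42% of all genes were called lower and 0.319% higher. At an unadjusted p under 0.05, 13 of the 42 were lower and 2 higher, against 1516 lower and 1801 higher of all 19775 genes. The list was drawn up with earlier results of these data known, so its counts cannot be read against those of all genes. LAMB3, a laminin chain of the basement membrane, read 10.2, 9.95 and 10.1 in knockdown clones, against 11.0, 11.0 and 11.1 in control clones (−0.91, SE 0.10, adjusted p = 0.0311 in limma). ITGA5, a chain of the fibronectin receptor, read 8.20, 8.12 and 8.66 in knockdown and 9.61, 9.39 and 9.48 in control clones (−1.17, SE 0.15, adjusted p = 0.0368). ICAM1, an adhesion molecule that NF-kB also controls, read 8.36, 7.31 and 8.10 in knockdown and 9.66, 9.64 and 9.61 in control clones (−1.71, SE 0.24, adjusted p = 0.0430). These 3 genes were below all control clones in every knockdown clone, clone 3 included. ITGA5 had the clone order of FOS, with clone 2 lowest and clone 3 highest among knockdown clones, while LAMB3 and ICAM1 were highest in clone 1. With the RNA quality index in the fit, which was higher in every knockdown clone, 0 of the 42 were called, and the part of the index in these changes was not tested further. The calls were also lost without control clone 1, 2 or 3 (adjusted p from 0.230 to 0.279, changes from −1.72 to −0.89). Without knockdown clone 2 only ICAM1 passed (−1.41, adjusted p = 0.0339). The list median was −0.14, against −0.01 over all genes.

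The list also held genes with values the other way, picked out after they were seen. IL11, a cytokine of the IL6 family, read 8.39, 8.73 and 10.86 in knockdown clones 1, 2 and 3, against 7.10, 6.94 and 6.91 in control clones 1, 2 and 3. Its change of 2.34 (SE 0.57) was the largest positive one over all genes on their brightest probe sets and missed the threshold (adjusted p = 0.128 in limma). MMP1, a collagenase, read 8.68, 8.32 and 10.71 in knockdown and 7.99, 7.93 and 7.90 in control clones (1.30, SE 0.55, adjusted p = 0.348 in limma). In both genes every knockdown clone lay above all controls and clone 3 was highest. Without knockdown clone 3 both were called higher, IL11 at 1.58 (adjusted p = 0.00375 in limma) and MMP1 at 0.56 (adjusted p = 0.0468). In that fit 11 of the 42 genes of the list were called lower, where 2.23% of all genes were (6.19% in either direction), with the same limit on how the list was drawn up. These calls hold for knockdown clones 1 and 2 only, and clone 3 was left out after its values were known.

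Over the 6 arrays and on brightest probe sets, the members fell into different patterns, given here as correlations without a test because the points share arrays and the control clones lie close together. FOS correlated with JUNB at 0.97 and with FOSB at 0.96. ATF3 correlated with FOSL1 at 0.93 and with EGR1 at 0.87, and FOSL2 with EGR1 at −0.93. JUN lay between −0.30 and 0.46 with each other member. Among 13034 other genes with a mean of 5 or more, those most like JUN were ANXA2 (r = 0.998), CARHSP1 (0.998), SPINT2 (0.995) and ADAD2 (0.995). Those most like FOS were NUDT5 (0.996), OAF (0.996), AKR1C1 (0.995) and RPS6KB2 (0.994). With so few arrays such values are common: 127 genes exceeded 0.95 with JUN and 102 with FOS. AKR1C1 has near-identical paralogues, so its value is uncertain.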

How the data were processed

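Per the submitters' processing notes, the authors ran RMA in Expression Console 1.0 of Affymetrix, and they deposited log2 values, 1 column for each of 6 arrays and 0 of other samples. RMA subtracts background, sets all arrays to 1 distribution and summarises each probe set, so a shift of nearly all transcripts together is lost. Scanner files were not analysed here, and the number of arrays limits the precision. Gene names came from the platform annotation, with symbols updated by gene identifier through RefSeq (41037 of 41091 with 1 symbol), and 62 control probe sets were left out of the tests. Probe sets ending in _s_at, _x_at or _a_at may match several transcripts.

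The test was limma 3.58.1 (eBayes after lmFit, group as the only term, 3.49 prior degrees of freedom) in R 4.3.3, tested on simulated data. P-values are two-sided, and single values were also compared by the exact permutation test. Nothing in the labels says the clones came from separate cultures on separate days, so p-values measure the spread between these arrays.

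The text names every member probe set, WASF3, up to 4 called genes of each pathway list or else the 2 with the smallest p, and the 4 genes most like the members with the smallest p (JUN) and the largest SD (FOS). Others are said to be chosen after their values were seen, which holds for HES1, IL11, MMP1, the genes with a clone 3 split and the markers with values. Members and lists were chosen with earlier results of these data known, the pathway lists share MAFF, SRF and DUSP1, and CD44 and DCN are also in marker lists. Marker lists for other cells gave no called gene on brightest probe sets: leukocyte (5 matched), endothelial (3), fibroblast (6), and the lists of MDA-MB-231 markers (6) and of receptors and epithelial genes low in it (5).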

Additional observations from a re-analysis of the deposited data

How the results depend on the processing

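Scaling, the variance model, probe set choice and each clone in turn were varied, and 315 of 343 limma values of member probe sets kept their sign while 5 passed, all without knockdown clone 3. The counts of called member probe sets (0) and members (0) ran from 0 to 5 and from 0 to 3 with a clone left out and were 0 otherwise. Over the array, 305 probe sets and 146 genes were called, ranging from 3 to 2493 and from 2 to 1225 with a clone left out (2493 and 1225 without knockdown clone 3, 1465 and 707 without clone 1, 33 and 20 without clone 2, and 3 to 5 and 2 to 3 without a control clone). They were 115 and 63 with an intensity trend, 1 and 1 with the RNA quality index as covariate, and 144 and 91 without probe sets that may match several transcripts. The mean of all probe sets gave 238 genes. The clone numbers did not pair the samples: deviations of same-numbered clones correlated at −0.07, −0.10 and −0.04, and no clone correlated best with its own number. With the number as a replicate block 6 probe sets, 3 genes, 0 member probe sets and 0 target genes were called.

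With a clone left out, the AP-1 partner list had 0 to 1 calls (median −0.066 to 0.036), immediate early genes 0 to 6 (−0.20 to −0.048), upstream regulators 0 to 1 (−0.048 to 0.042) and target genes 0 to 13 (−0.18 to −0.14). Target genes had 0 calls with the index. The immediate early list had 1 with quantile normalization and 1 with the mean of probe sets, as had the upstream list with that mean. Medians moved to −0.13 (index) and 0.045 (mean of probe sets) for partners. For targets they were −0.16 (index), −0.17 (75th percentile) and −0.19 (without dim probe sets). For upstream regulators they were −0.0017 (median centring), −0.054 (75th percentile) and −0.095 (without several-transcript probe sets).

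Signs turned with a clone left out for FOSL1 (−0.048 to 0.45), FOSL2 on 228188_at (−0.21 to 0.49), 225262_at (−0.29 to 0.36) and 218881_s_at (−0.074 to 0.15), JUND on 229117_s_at (−0.11 to 0.081), ATF3 on 202672_s_at (−0.26 to 0.27), and EGR1 on 201694_s_at (−0.78 to 0.42), 227404_s_at (−0.92 to 0.41) and 201693_s_at (−0.66 to 0.37). With the index they turned for FOSL2 on 218880_at (−0.087) and 205409_at (0.30), JUN on 201465_s_at (0.085), JUND on 203752_s_at (0.078), 203751_x_at (0.14) and 214326_x_at (0.22), and EGR1 on 201694_s_at (0.63) and 201693_s_at (0.88). Under median centring or quantile normalization JUND on 229117_s_at gave 0.0014 and 0.0067 and EGR1 on 201693_s_at 0.018 and 0.014, and with the 75th percentile ATF3 on 202672_s_at gave −0.0061. The cause was not tested.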
